A study of Mus musculus with 8 samples.

Results

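Hair keratins and keratin-associated proteins (KAP) were read in 8 mammary tumour samples. Members were taken by symbol from the platform annotation: every gene whose symbol starts with Krtap, the keratins Krt25 to Krt28, Krt31 to Krt36, Krt71 to Krt75 and Krt81 to Krt86, and Tchh and Padi3. Only probes annotated to 1 symbol were used, which gave 60 genes on 65 probes, out of 18193 genes measured. They are 22 keratins, Tchh and Padi3 together, and 38 KAP genes. A further 18 genes of the rule in the RefSeq gene table, all KAP, had no probe with a single symbol and are not analysed here. Krt74 and Krt85 are not among the 60 genes either. In addition, 6 probes that name several genes were left out.

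All mice were females of the MMTV-PyMT genotype, on the background listed as FVB/N-Tg(MMTV-PyVT)634Mul/J, in which the mouse mammary tumour virus promoter drives the polyoma virus middle T antigen in mammary epithelium, so that tumours arise there. One group of 4 samples came from mice given SKI-606, a blocker of the Src and Abl kinases also called bosutinib, by gavage at 100 mg/kg in methocellulose and Tween 80, and the other 4 came from mice given vehicle. The title of the series names tumour differentiation under SKI-606 as its question. Ages, length of treatment and the animals behind the samples are not listed in the labels, so every p-value rests on the spread among these 8 samples, which may be technical in part.

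Hair keratins are the intermediate filament proteins of the hair follicle and its shaft. Type I and type II keratins pair in each layer: the inner root sheath, which moulds the growing shaft, has its own pairs (Krt25 to Krt28 with Krt71 to Krt73), and the shaft has others in its cortex and in its cuticle of flat outer cells. In the shaft, KAPs fill the space between the filaments and bind them by disulfide bonds, whereas in the inner root sheath trichohyalin (Tchh) is modified by the peptidylarginine deiminase Padi3 and cross-linked. Mammary epithelium is known for other keratins, Krt8 and Krt18 in luminal cells and Krt5 and Krt14 in basal cells.

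Each level below is a signal in array units, recovered from the deposited ratios and quantile normalized between the 8 arrays. Signals below 32 were treated as dim, and between 10317 and 10591 of the 18193 genes reached 32 in each array. Vehicle sample 3 differed from the other arrays in its distribution before normalization, with 27.8% of signals below 10, against 34.0% to 41.6% in the other 7. Luminal markers of mammary epithelium were bright in all 8 samples, with Krt19 between 1491 and 4140 in SKI-606 samples and between 1007 and 3038 in vehicle samples. The number of arrays, 4 in each group, limits the precision of every value.

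The hair genes were high in 3 of the 8 tumours: SKI-606 samples 1 and 4, and vehicle sample 3. In SKI-606 samples 1 to 4, 53, 1, 4 and 55 of the 60 genes reached a signal of 32, and in vehicle samples 1 to 4, 5, 3, 36 and 5 did. The median signal over the 60 genes was 264, 4.88, 5 and 459 in SKI-606 samples 1 to 4, against 4.38, 6.25, 53.8 and 8.00 in vehicle samples 1 to 4. Each group therefore held samples with and without these transcripts.

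In 47 of the 60 genes the 3 highest arrays were exactly those 3, against 3.66% of all genes. In 29 of the 60 (48.3%) all 3 stood at least 1 unit of log2(signal + 16) above each of the other 5, a pattern found in 126 of all genes (0.693%), so that these members make up 23.0% of the 126. Of the 10 genes with the widest such gap, 5 were members. The 3 samples were picked out by these same values, so the counts describe the pattern and test nothing. In bulk tissue, fewer cells of a type and less RNA per cell cannot be told apart.

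**Figure D1:**
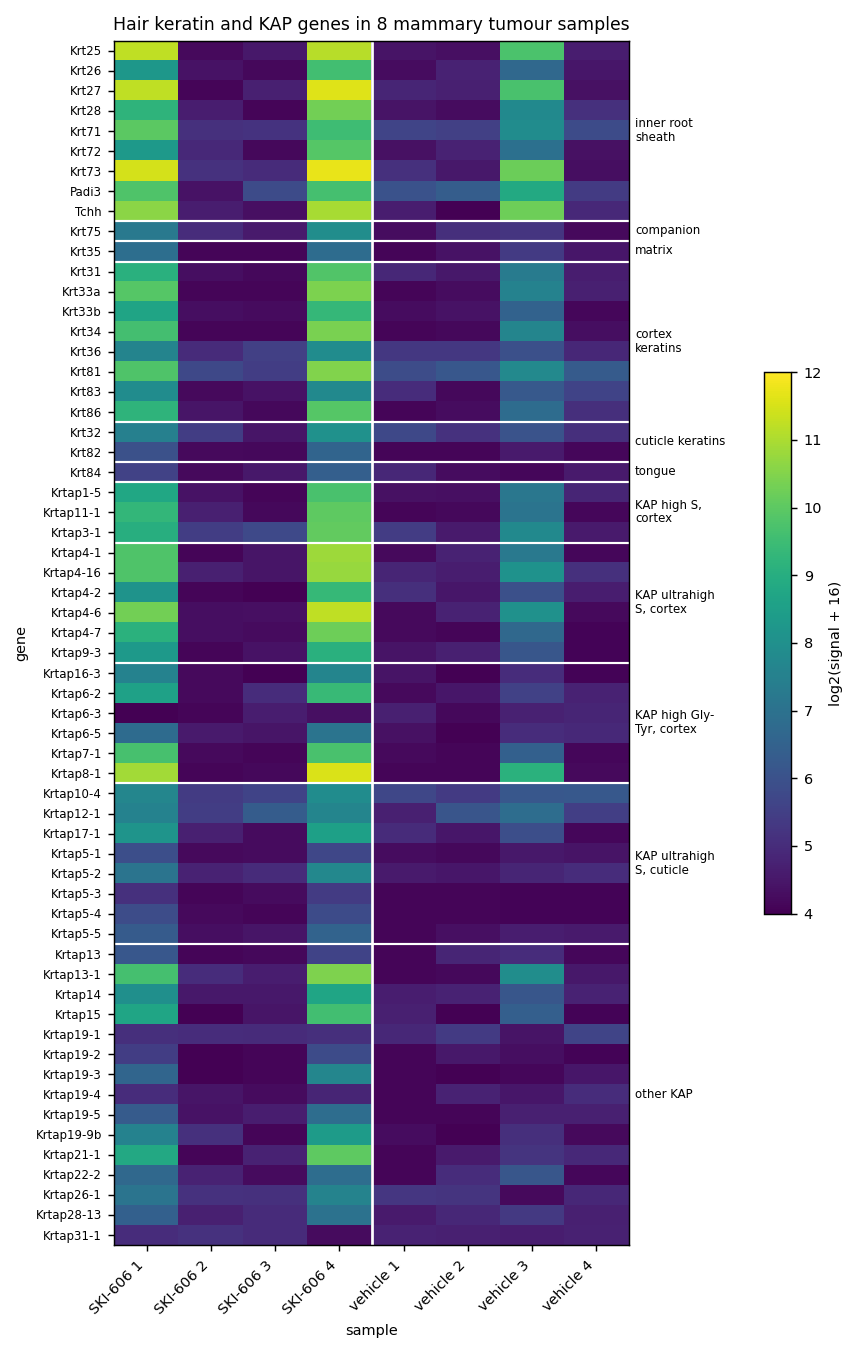
Signals of the 60 genes (rows, grouped by follicle layer or KAP family) in SKI-606 samples 1 to 4 and vehicle samples 1 to 4 (columns), on the colour scale log2(signal + 16). SKI-606 samples 1 and 4 are bright in most rows, vehicle sample 3 is at a level in between, and the other 5 columns are dark.

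Among the inner root sheath genes, all 9 showed this gap. Krt27, a type I keratin of the sheath, had signals of 2413, 1.1, 10.1 and 3131 in SKI-606 samples 1 to 4, against 12.4, 10.2, 816 and 4.5 in vehicle samples 1 to 4. Its type I relative Krt25 had 2384, 2.4, 7.0 and 2241 in SKI-606 samples, against 5.6, 4.2, 832 and 9.1 in vehicle samples. Both genes were therefore at the dim end of the scale in 5 tumours, and the vehicle range lay inside the SKI-606 range.

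The type II keratins of the sheath followed the same samples. Krt73 had 2839, 19.5, 15.5 and 3390 in SKI-606 samples, against 18.6, 7.0, 1171 and 3.6 in vehicle samples. For Krt71, the type II partner whose mutations give curly coats in rodents, signals were 999.6, 18.5, 19.8 and 720 in SKI-606 samples, against 34.2, 30, 221 and 40.5 in vehicle samples. Krt72 stood at 303, 14.4, 2.0 and 928 in SKI-606 samples, against 4.4, 11.4, 108 and 4.5 in vehicle samples. Krt71 was higher in SKI-606 sample 1 than in sample 4, and Krt72 the other way round.

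The remaining type I genes, Krt26 and Krt28, were also highest in SKI-606 sample 4. Krt26 had 286, 4.9, 2.0 and 753 in SKI-606 samples, against 3.4, 11.4, 88.9 and 6.2 in vehicle samples. Krt28 had 573, 9.1, 1.1 and 1230 in SKI-606 samples, against 5.6, 3.1, 208 and 18.6 in vehicle samples.

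Tchh and Padi3, the matrix protein of the sheath and the enzyme that modifies it, were, within the sheath, the genes for which vehicle sample 3 came closest to SKI-606 samples 1 and 4. Tchh had 1563, 9.1, 4.1 and 1976 in SKI-606 samples, against 9.1, 0.2, 1187 and 14.5 in vehicle samples. Padi3 had 869.6, 4.9, 40.4 and 779 in SKI-606 samples, against 48.8, 65.9, 447 and 26.1 in vehicle samples. The Padi3 signal of 65.9 in vehicle sample 2 was the highest of any of the 60 genes in the 5 tumours without the pattern.

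Outside the sheath proper, Krt75, the keratin of the companion layer between inner and outer root sheath, had 134, 16.5, 8.0 and 229 in SKI-606 samples, against 3.4, 17.5, 21.9 and 2.5 in vehicle samples. Krt35, a type I keratin that starts in the hair matrix and continues into the shaft, had 103, 1.1, 1.1 and 98.1 in SKI-606 samples, against 1.1, 5.2, 25 and 6.2 in vehicle samples. For both, vehicle sample 3 stayed below 32.

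The cortex keratins form the filaments of the hair shaft. All 8 measured had vehicle sample 3 as the third highest array, and 6 of 8 showed the gap of 1 log2 unit. Krt33a had 935.6, 1.1, 1.1 and 1363 in SKI-606 samples, against 1.1, 3.1, 169 and 10 in vehicle samples. Krt34 had 773, 1.1, 1.1 and 1325 in SKI-606 samples, against 1.1, 2.0, 184 and 3.6 in vehicle samples. Both are type I keratins, encoded in one cluster with Krt31 and Krt33b.

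Krt31 had 527, 3.6, 2.0 and 902 in SKI-606 samples, against 13.4, 7.0, 146 and 9.1 in vehicle samples. The type II keratin Krt86 had 573, 5.8, 2.0 and 932 in SKI-606 samples, against 1.1, 3.1, 97.1 and 17.5 in vehicle samples. Krt81, another type II keratin, had 869.6, 36.9, 27.5 and 1420 in SKI-606 samples, against 42.6, 55.4, 201 and 62.1 in vehicle samples. The Krt81 probe thus read above 32 in several samples in which the other cortex keratins were dim. Near-identical paralogues can bind each other's probes, so which of the close type I or type II genes gave a signal is uncertain.

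The cuticle keratins Krt32 and Krt82 were high in the same SKI-606 samples, with less in vehicle sample 3. Krt32, the type I gene, had 162, 27.6, 6.1 and 246 in SKI-606 samples, against 37.0, 19.5, 50.2 and 17.5 in vehicle samples. Krt82, its type II counterpart, had 47.9, 2.4, 2.0 and 78.9 in SKI-606 samples, against 1.1, 1.1, 7.9 and 1.6 in vehicle samples. Krt84, known from tongue papillae and nail, reached 32 in a single array, with 31.4, 2.4, 7.0 and 69.2 in SKI-606 samples, against 13.4, 3.1, 1.8 and 8.0 in vehicle samples.

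**Figure D2:**
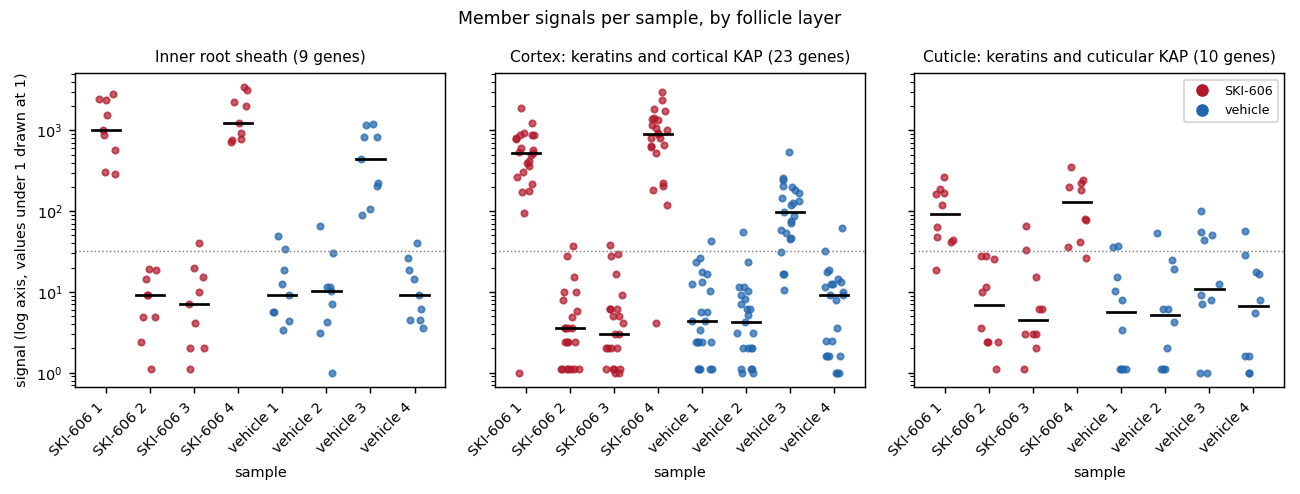
Signal of each gene (points, log axis) in each sample for the inner root sheath (9 genes), the cortex (23 keratins and KAPs) and the cuticle (10 keratins and KAPs), with bars at the median and a dotted line at 32. The sheath median is 999.6 and 1230 in SKI-606 samples 1 and 4 and 447 in vehicle sample 3, and the cuticle median in vehicle sample 3 is 10.8.

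The promoters of the shaft genes are shown because some members with the same pattern over samples have motifs in common there. RefSeq promoters (build GRCm38.p6) were found for 53 of the 60 genes, and the 250 bases before the start were searched. TATAAA, the TATA box, was searched on the forward strand in the last 40 bases, and CTTTGAAG, the LEF1 consensus known from hair keratin promoters, on both strands. TTTTATG, searched on both strands, was picked after the sequences were seen. In the stretches below, 5′ to 3′ on the gene's own strand, capitals mark these motifs: TATAAA near the right end, CTTTGAAG at the left end and, in the 3 keratins, TTTTATG between them.
Krt34: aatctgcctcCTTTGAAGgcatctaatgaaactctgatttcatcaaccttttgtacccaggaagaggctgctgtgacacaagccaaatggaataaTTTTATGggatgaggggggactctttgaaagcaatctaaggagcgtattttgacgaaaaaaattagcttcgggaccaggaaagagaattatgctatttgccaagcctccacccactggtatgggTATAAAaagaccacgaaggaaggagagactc
Krt31: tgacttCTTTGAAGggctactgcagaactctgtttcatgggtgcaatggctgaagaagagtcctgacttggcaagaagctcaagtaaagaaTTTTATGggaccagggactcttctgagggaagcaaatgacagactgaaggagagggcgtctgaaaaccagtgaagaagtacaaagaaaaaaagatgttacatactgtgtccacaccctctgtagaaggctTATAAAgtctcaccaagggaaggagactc
Krt32: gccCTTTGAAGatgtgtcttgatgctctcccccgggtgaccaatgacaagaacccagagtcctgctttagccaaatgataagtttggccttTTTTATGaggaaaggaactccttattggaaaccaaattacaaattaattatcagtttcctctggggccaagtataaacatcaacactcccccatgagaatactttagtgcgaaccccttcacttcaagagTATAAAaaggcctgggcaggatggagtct
Krtap11-1: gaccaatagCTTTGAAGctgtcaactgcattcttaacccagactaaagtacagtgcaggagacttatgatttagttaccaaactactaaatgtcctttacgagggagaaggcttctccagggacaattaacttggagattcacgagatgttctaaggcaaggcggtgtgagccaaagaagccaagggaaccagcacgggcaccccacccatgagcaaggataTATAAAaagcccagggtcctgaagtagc
These lie at chr11:100041555-100041804 for Krt34, chr11:100050552-100050801 for Krt31, chr11:100088270-100088519 for Krt32 and chr16:89571184-89571433 for Krtap11-1, all on the minus strand. The first base of CTTTGAAG is at -240, -244, -247 and -241 in these 4 promoters, counted back from the start. The type I keratins are paralogues in one cluster, so their shared letters are not independent, whereas Krtap11-1 is a KAP gene on another chromosome.

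TATAAA was in 30 of the 53 member promoters (56.6%), against 2.31% of all 32851 promoters. CTTTGAAG was in 9 (17.0%), against 1.42%, and TTTTATG in 15 (28.3%), against 3.77%. AACAAAG, another form of the TCF/LEF consensus, searched on both strands, was in 8 (15.1%), against 5.03%. CTTTGAAG and AACAAAG cannot mark the same letters on either strand. On the gene's strand, a CTTTGAAG that starts between -250 and -231, a stretch chosen after seeing the promoters, was in 7 members (13.2%), against 27 of all promoters (0.0822%). The 7 are Krt31, Krt32, Krt33b, Krt34, Krtap11-1, Krtap16-3 and Krtap19-3. Having the motifs and having the pattern did not always go together: Tchh and Padi3 show the gap and hold none of the 4 motifs in these windows, while Krtap6-3 and Krtap31-1 hold TATAAA and lack the pattern. A match is a description of the letters, not evidence of a bound site.

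The TATAAA matches of genes from other layers and families are shown in the last 60 bases before the start. These are the inner root sheath gene Krt27, the ultrahigh sulfur KAP of the cortex Krtap4-6, the high glycine-tyrosine KAP Krtap8-1 and the cuticle KAP Krtap17-1, with TATAAA in capitals.
Krt27: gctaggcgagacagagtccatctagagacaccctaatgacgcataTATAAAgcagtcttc
Krtap4-6: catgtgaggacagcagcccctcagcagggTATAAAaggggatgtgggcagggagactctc
Krtap8-1: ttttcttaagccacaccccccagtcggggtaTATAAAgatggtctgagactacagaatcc
Krtap17-1: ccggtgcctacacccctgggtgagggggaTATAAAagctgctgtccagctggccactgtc
Their positions are chr11:99351119-99351178, chr11:99665961-99666020, chr16:89487953-89488012 and chr11:99993995-99994054, in the same order and all on the minus strand. The match starts at -31 in Krtap4-6 and Krtap17-1, at -29 in Krtap8-1 and, nearer the annotated start, at -15 in Krt27.

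The KAPs of the cortex fall into high sulfur, ultrahigh sulfur and high glycine-tyrosine families. Krtap11-1, a high sulfur KAP, had signals of 612, 10.1, 2.0 and 1016 in SKI-606 samples, against 1.1, 2.0, 120 and 1.6 in vehicle samples. Krtap3-1, of the same class, had 501, 27.6, 38.1 and 1059 in SKI-606 samples, against 26.6, 8.1, 208 and 8.0 in vehicle samples. All 3 high sulfur KAPs assigned to the cortex showed the gap of 1 log2 unit, with vehicle sample 3 below both bright SKI-606 samples.

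Of the 6 ultrahigh sulfur KAPs of the cortex, 5 showed the gap. Krtap4-6 had 1237, 3.6, 4.1 and 2399 in SKI-606 samples, against 2.4, 11.4, 246 and 2.5 in vehicle samples. Krtap4-1 had 868, 1.1, 6.1 and 1819 in SKI-606 samples, against 2.4, 11.4, 134 and 1.6 in vehicle samples. In this class the signal in SKI-606 sample 4 was 2.04 times that in sample 1 in the median, compared with 1.26 times in the inner root sheath.

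The high glycine-tyrosine KAPs assigned to the cortex, small proteins rich in those residues, ranged more widely among themselves. Krtap8-1 had 1880, 1.1, 2.0 and 2991 in SKI-606 samples, against 1.1, 1.1, 535 and 2.5 in vehicle samples. Krtap7-1 had 804, 2.4, 1.1 and 811 in SKI-606 samples, against 2.4, 1.1, 72.2 and 1.6 in vehicle samples. By contrast Krtap6-3 was dim throughout, with 0.2, 1.1, 9.1 and 4.1 in SKI-606 samples, against 10.2, 2.0, 10.6 and 12.4 in vehicle samples.

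The cuticle KAPs of the Krtap5, Krtap10, Krtap12 and Krtap17 families were above the dim range mostly in SKI-606 samples 1 and 4, and none of the 8 showed the gap with vehicle sample 3 included. Their median signals in SKI-606 samples 1 and 4 were 91.4 and 130, and dimmer genes have less room for this gap. Krtap17-1 had 268, 10.1, 3.0 and 357 in SKI-606 samples, against 15.5, 6.2, 44.4 and 1.6 in vehicle samples. Krtap5-2 had 120, 11.4, 15.5 and 196 in SKI-606 samples, against 8.0, 6.2, 12.4 and 16.5 in vehicle samples. Vehicle sample 3 was thus within the range of the other vehicle samples for Krtap5-2.

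Krtap12-1 had 169, 27.6, 65.1 and 183 in SKI-606 samples, against 10.2, 53.5, 101 and 28.5 in vehicle samples. Krtap5-3 was dim in every array, with 18.6, 1.1, 3.0 and 26.2 in SKI-606 samples, against 1.1, 1.1, 0.9 and 1.0 in vehicle samples. Across all members, 13 genes never reached a signal of 100, and for these a small difference in array units gives a large ratio.

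The 15 other KAPs were given no layer and were not sorted by sulfur or glycine-tyrosine content, so the classes above do not include them. Krtap13-1 had 775, 16.5, 9.1 and 1392 in SKI-606 samples, against 1.1, 2.0, 229 and 7.0 in vehicle samples. Krtap15 had 402, 0.2, 6.1 and 741 in SKI-606 samples, against 10.2, 0.2, 70.1 and 1.0 in vehicle samples. Vehicle sample 3 was the third highest array, after SKI-606 samples 4 and 1, in both.

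In this class vehicle sample 3 reached a signal of 32 in only 4 of the 15 genes. It was dim in the others, of which 3 are given here. Krtap21-1 had 435, 1.1, 11.4 and 1027 in SKI-606 samples, against 1.1, 8.1, 20.6 and 14.5 in vehicle samples. Krtap26-1 had 118, 19.5, 18.6 and 174 in SKI-606 samples, against 22.6, 20.5, 2.4 and 13.4 in vehicle samples. For Krtap19-9b the values were 172.5, 18.5, 1.1 and 317 in SKI-606 samples, against 3.4, 0.2, 17.5 and 2.5 in vehicle samples. In Krtap26-1 vehicle sample 3 was the lowest of all 8 arrays.

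In 13 of the 60 genes the 3 highest arrays were not exactly these 3. In 9 of those 13, SKI-606 samples 1 and 4 were still the 2 highest, and over all members they were the 2 highest in 56 of 60, against 11.1% of all genes. The exceptions were Krtap6-3, Krtap19-1, Krtap19-4 and Krtap31-1, with no signal above 34 in any array. Krtap19-1 had 17.5, 16.5, 15.5 and 17.5 in SKI-606 samples, against 13.4, 25.2, 5.6 and 34.0 in vehicle samples.

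Between the 3 tumours with hair gene signal, levels were set against each other gene by gene. Genes were kept by their signal in SKI-606 samples 1 and 4 alone, which favours low shares in vehicle sample 3. Among the 42 genes with a signal of at least 100 in both SKI-606 samples 1 and 4, vehicle sample 3 was below both in all 42. Its signal was 22.8% of that in SKI-606 sample 1 and 13.0% of that in SKI-606 sample 4 in the median, against 95.8% and 101% over all genes that bright. The sheath genes kept the largest share, 35.5% and 30.6%, and the cortex keratins had 23.5% and 14.0%. In the high sulfur KAPs of the cortex the shares were 30.2% and 15.7%, and in the 5 cuticle genes that bright 29.6% and 20.4%. These cuticle medians are the shares of Krtap10-4 and Krt32, which also had signal in vehicle samples without the pattern. Krtap10-4 had 55.9 in vehicle sample 3 and 57.1 in vehicle sample 4. Krt32 had 50.2 in vehicle sample 3 and 37 in vehicle sample 1. The cuticle medians therefore cannot be ranked against those of the cortex. In the ultrahigh sulfur KAPs of the cortex the shares were 17.5% and 8.87%, and in the high glycine-tyrosine KAPs of the cortex 9.28% and 9%.

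Within the sheath the shares ran from 75.9% and 60.1% for Tchh to 22.1% of SKI-606 sample 1 for Krt71 and 11.6% of SKI-606 sample 4 for Krt72. Krtap12-1 stood apart from the other 3 bright cuticle KAPs, at 59.7% and 55.0%, but its second probe did not share this. That probe had 77.2, 1.1, 19.8 and 130 in SKI-606 samples, against 1.1, 9.1, 7 and 1 in vehicle samples. At the low end, Krtap26-1 had 2.03% and 1.38% and Krtap21-1 had 4.74% and 2.01%. These are shares between single arrays, with no replicate behind them, and the differences between layers were not tested. Between the SKI-606 samples, sample 4 was above sample 1 in 38 of the 42 genes and not in Krt25, Krt71, Krt83 and Padi3.

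**Figure D3:**
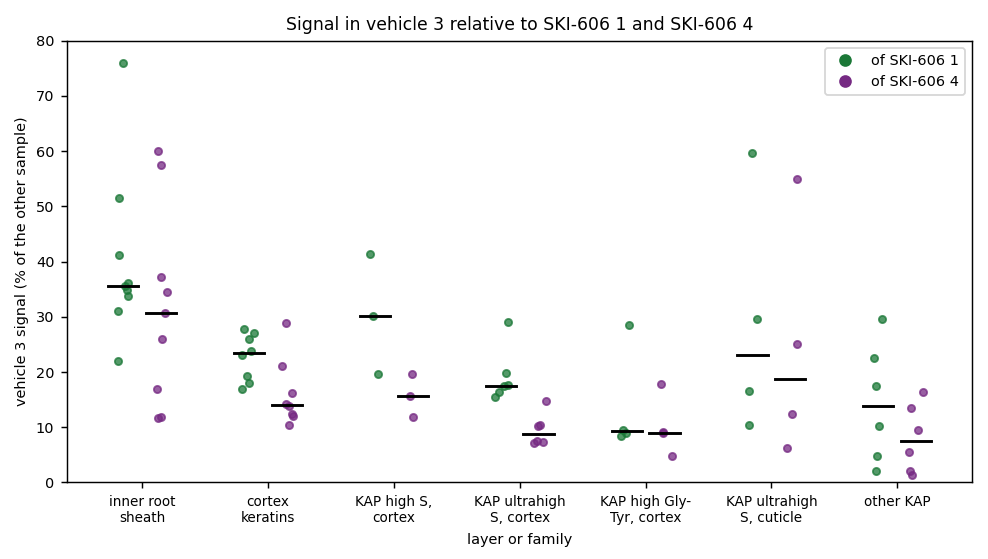
Signal in vehicle sample 3 as a percent of that in SKI-606 sample 1 (green) and SKI-606 sample 4 (purple), 1 point for each of the genes with a signal of at least 100 in both SKI-606 samples, with bars at the class median. The medians are highest in the inner root sheath, at 35.5% and 30.6%. They are lower in the cortex classes, the cuticle KAPs (23.1% and 18.8%) and the KAPs with no layer assigned.

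Between the treatment groups, no member passed the test. limma across all 45037 probes with Benjamini-Hochberg adjustment called 0 probes at an adjusted p under 0.05 (0% of probes and 0% of genes), and adjusted p-values of the 60 members ran from 0.582 to 0.976. At an unadjusted p under 0.05, 4 members were higher in SKI-606 samples and 0 lower, where 6.07% of all genes were higher and 4.31% lower. The 4 are Krtap26-1, Krtap5-2, Krtap19-9b and Krtap5-3, in which vehicle sample 3 was not high. No member had every SKI-606 value above every vehicle value, against 2.39% of all genes, and none had every value below, against 2.03%.

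The fitted log2 fold change, SKI-606 minus vehicle on the scale log2(signal + 16), was above 0 in 58 of 60 members, with a median of 1.44, compared with 47.2% of all genes and a median of -0.02. This scale understates the change of dim genes. By class the median was 1.68 in the inner root sheath, 1.65 in the cortex keratins and 0.93 in the cuticle keratins. Among the KAPs it was 1.97 for the high sulfur, 1.98 for the ultrahigh sulfur and 1.75 for the high glycine-tyrosine families of the cortex, 0.93 for the cuticle and 1.14 for the rest. Leaving out 1 sample at a time moved the sheath median between 0.58 (SKI-606 sample 4 dropped) and 2.64 (SKI-606 sample 3 dropped). Over the same 8 fits the cortex keratins ran from 0.77 to 2.49 and the ultrahigh sulfur KAPs of the cortex from 0.88 to 2.93, lowest and highest with the same samples dropped. The median over all members was 0.89 after SKI-606 sample 1 was dropped, 0.66 after SKI-606 sample 4 was dropped and 1.73 after vehicle sample 3 was dropped. With SKI-606 samples 1 and 4 and vehicle sample 3 all left out, it was -0.08.

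The standard errors were close to the differences themselves for Krt27 and Krtap8-1. Krt27 had a log2 fold change of 2.02 ± 1.91 (SE, n = 4 in each group, limma adjusted p = 0.804). Krtap8-1 had 2.30 ± 1.91, Krt33a 1.98 ± 1.54 and Krtap4-6 2.23 ± 1.66. Errors were smaller for some genes that were dim in vehicle sample 3: Krtap26-1 stood at 1.34 ± 0.56 with the lowest adjusted p of the members, Krtap5-2 at 1.41 ± 0.61 and Krt75 at 1.49 ± 0.69. Krtap21-1, also dim in that sample, had 2.22 ± 1.18. The only values below 0 were Krtap6-3 at -0.34 ± 0.20 and Krtap19-1 at -0.05 ± 0.24. The sign of Krtap19-1 turned with the pseudocount and with single arrays.

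**Figure D4:**
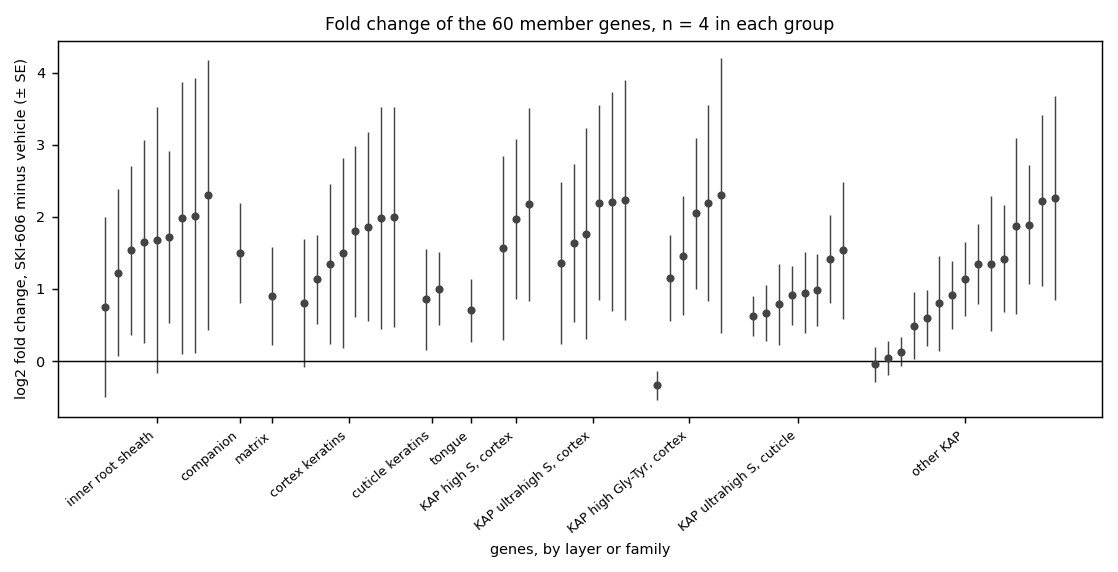
Fitted log2 fold change, SKI-606 minus vehicle, with its standard error for each of the 60 genes, grouped by layer or KAP family and sorted within each group (n = 4 samples in each treatment group). Most points lie above 0 with a median of 1.44, and the bars of the inner root sheath genes are long.

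Other genes of the hair follicle, from lists written out by role, showed the pattern in part, and limma called 0 of them in either direction. Of 16 structural and processing genes of shaft and sheath, 12 had the same 3 highest arrays and 8 showed the gap. S100a3, a calcium-binding protein of the hair cuticle, had 1438, 10.1, 1.1 and 1799 in SKI-606 samples, against 3.4, 7.0, 258 and 11.4 in vehicle samples. Crym, a cytosolic thyroid hormone-binding protein, had 687, 2.4, 2.0 and 1427 in SKI-606 samples, against 1.1, 3.1, 166 and 2.5 in vehicle samples. Rptn, a cornified envelope protein related to trichohyalin, differed in order, with 202, 12.4, 11.4 and 282 in SKI-606 samples, against 7.0, 7.0, 422 and 2.5 in vehicle samples. Selenbp1 and Lpar6 did not follow the 3 arrays. Selenbp1 had 313, 435, 404 and 240 in SKI-606 samples, against 407, 393, 708 and 453.5 in vehicle samples. Lpar6 had 85.5, 153.5, 139.5 and 114.6 in SKI-606 samples, against 163, 178, 173 and 134 in vehicle samples.

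Of 16 signalling genes, 6 had those 3 arrays highest and 2 showed the gap. Shh, the hedgehog ligand made by the hair matrix, had 376, 13.4, 8.0 and 583 in SKI-606 samples, against 24.6, 28.9, 161.5 and 45.5 in vehicle samples. Sostdc1, a secreted BMP and Wnt antagonist, had 333, 38.8, 45.5 and 441 in SKI-606 samples, against 57.4, 152, 195 and 110.5 in vehicle samples.

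Of 18 transcription factors, 7 had those 3 arrays highest and 2 showed the gap. Dlx3, a homeobox factor of the matrix and shaft, had 121.5, 18.5, 15.5 and 98.9 in SKI-606 samples, against 24.6, 19.5, 136 and 26.1 in vehicle samples. Sox9 and Trps1 did not follow the 3 arrays. Sox9 had 515.5, 343, 448 and 390 in SKI-606 samples, against 230, 279, 164 and 203 in vehicle samples. Trps1 had 171, 760, 453 and 459 in SKI-606 samples, against 503.5, 864, 582.5 and 376 in vehicle samples. Hoxc13, a homeobox factor known to act on hair keratin genes and named here after its values were seen, had 31.4, 1.1, 3.0 and 29.2 in SKI-606 samples, against 2.4, 10.2, 8.2 and 2.5 in vehicle samples, all dim. Lef1, the factor whose consensus is CTTTGAAG, had 40.4, 20.4, 25.2 and 25.4 in SKI-606 samples, against 16.5, 14.4, 17.5 and 21.0 in vehicle samples. It did not follow the 3 arrays and was above 32 only in SKI-606 sample 1.

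**Figure D5:**
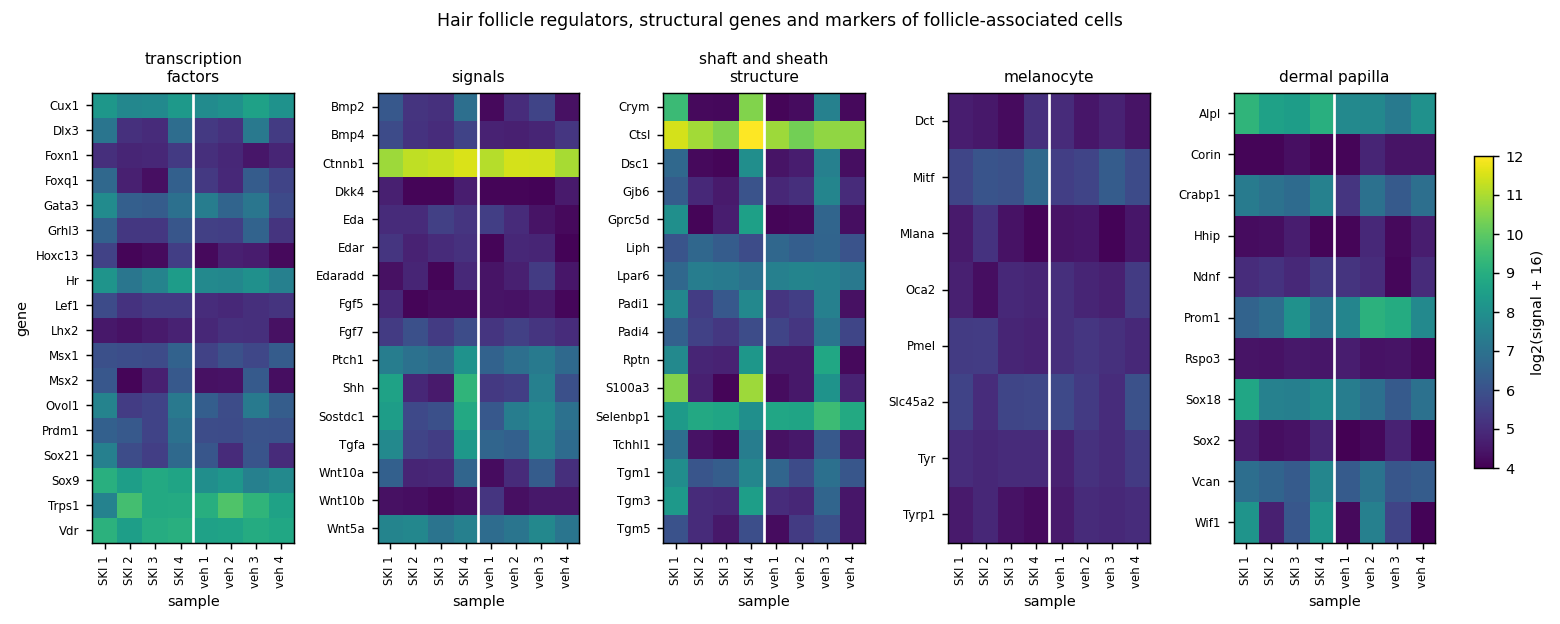
Hair follicle transcription factors, signals, structural genes, melanocyte markers and dermal papilla markers (rows) in SKI-606 samples 1 to 4 and vehicle samples 1 to 4 (columns), coloured by log2(signal + 16). S100a3, Crym and Shh are bright in SKI-606 samples 1 and 4 and in vehicle sample 3, while 6 of the 8 melanocyte markers stay below 32 in every array.

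Many markers of the surface epidermis, and keratins of the outer root sheath, were high in the same 3 tumours as the hair genes. Of 15 late epidermal genes, 11 had those 3 arrays highest and 9 showed the gap, and their mean log2(signal + 16) was 7.98, 4.95, 4.97 and 7.86 in SKI-606 samples, against 5.03, 5.14, 8.04 and 5.58 in vehicle samples. Krt1, the keratin of suprabasal epidermis, had 846, 1.1, 9.1 and 636 in SKI-606 samples, against 3.4, 13.4, 1091 and 16.5 in vehicle samples. Over the 8 late epidermal genes with a signal of at least 100 in SKI-606 samples 1 and 4, vehicle sample 3 had 58.8% and 73.7% of their signals in the median, beside 22.8% and 13.0% over the 42 hair genes. The filter on SKI-606 samples 1 and 4 left out late epidermal genes that reached 100 only in vehicle sample 3. The difference between epidermal and hair genes was not tested.

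Of 10 outer root sheath and basal keratinocyte genes, 6 had those 3 arrays highest and 4 showed the gap. Krt6b, a keratin of the companion layer and outer root sheath, had 3304, 2.4, 7.0 and 4250 in SKI-606 samples, against 17.5, 2.0, 2088 and 2.5 in vehicle samples. Krt15, a keratin of basal and bulge cells, did not follow the 3 arrays, with 31.4, 2.4, 3 and 21.4 in SKI-606 samples, against 36.1, 172, 384 and 16.5 in vehicle samples, and the 3 others without the pattern were Cd34, Trp63 and Lgr5. The part of these cells in the hair gene signal was not tested.

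Markers of other cell types mostly lacked the pattern. The 11 dermal papilla genes had those 3 arrays highest in 1 case. Of the 11, 5 were below 32 in every array, among them Corin, Hhip, Rspo3 and Sox2, named after their values were seen. Others were brighter: Alpl had 581, 369, 334 and 509 in SKI-606 samples, against 204, 199, 137 and 247 in vehicle samples. Wif1 had 268, 10.1, 56.4 and 276 in SKI-606 samples, against 2.4, 162, 33.5 and 1.0 in vehicle samples. Melanocyte genes had it in 0 of 8, with a highest signal of 88.1, and the sebaceous gland genes in 0 of 5. The 9 luminal mammary genes had it in 0, with mean log2 levels between 10.50 and 10.78 in SKI-606 samples and between 10.41 and 10.58 in vehicle samples. Skeletal muscle genes were highest in other arrays, with mean log2 levels of 8.35, 9.50, 5.19 and 4.60 in SKI-606 samples, against 10.07, 4.76, 6.79 and 5.43 in vehicle samples, and those of adipocytes were 6.44, 8.37, 5.87 and 6.76, against 7.42, 5.65, 5.80 and 7.83.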

How the data were processed

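Expression was measured in 8 tumour samples, 4 SKI-606 and 4 vehicle, grouped by their titles. The authors deposited linear ratios. The software behind them is not given in the sources used here. The ratios have the form of each signal divided by its array's median and then by its probe's median, which equals 1 in 58.08% of 45101 probes. Signals before these divisions were rebuilt by searching for the lowest set of integers with those ratios, and they gave back all 45101 deposited probes. On 5000 simulated probes the recovery was exact in 99.8%, and the others can be off by a common factor. The plan had foreseen intensities or log2 values, and the rebuilt signals were handled as it set out for linear values.

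Signals were quantile normalized, 16 was added and log2 was taken. limma 3.58.1 (R 4.3.3) was fitted to 45037 probes after 64 control probes were left out. Its p-values were adjusted by Benjamini-Hochberg and called below 0.05, and summaries were made in Python 3.11.15. Of a gene's probes that name it alone, the one with the highest mean stands for it. The symbols are those of the platform annotation, and 5 members had 2 probes. Of the representative probes, 4 are of a kind that can bind related transcripts. Depth does not apply to arrays.

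The members, the layers and the lists were chosen with earlier results of these data known. Named were all keratins, Tchh and Padi3, in each KAP class up to 5 genes of widest range over the samples, up to 5 members in each direction of smallest p, and from each other list up to 4 genes of widest range and 2 of smallest p. Exceptions are marked, or are named only as members of a count. Promoters come from RefSeq, build GRCm38.p6, and 53 of 60 genes matched by gene. Replicate numbers are shared between the groups, but samples with the same number did not deviate together, with correlations between -0.15 and 0.108, so the groups were not paired. Alternatives were other pseudocounts, no quantile normalization, the deposited ratios, a filter on dim probes, the mean of all probes, array weights, the replicate block, another threshold and leaving out samples.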

Additional observations from a re-analysis of the deposited data

Results flagged for a closer look

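Groups of 4 values were checked for 50 genes and 9 means over classes or all members. SKI-606 and vehicle samples were taken separately, which gave 118 groups. Vehicle sample 3 lay far above the other 3 vehicle samples in 23 of the vehicle groups. There its gap to the nearest sample took more of the group's range than Dixon's 95% critical value allows. Chance gives this in about 1 of 20 groups, and the values are not independent, because the genes share the same sample. Most of the genes checked were chosen for a wide range over these same samples, so the number of such cases is a description and tests nothing. In the inner root sheath the signals of vehicle sample 3 were 816 for Krt27, 1171 for Krt73, 832 for Krt25, 1187 for Tchh, 108 for Krt72 and 221 for Krt71. Among the keratins of the shaft they were 184 for Krt34, 146 for Krt31, 75.4 for Krt33b and 7.9 for Krt82, the last within the dim range. Among the KAPs of the cortex they were 120 for Krtap11-1, 246 for Krtap4-6, 254 for Krtap4-16, 88.0 for Krtap4-7, 535 for Krtap8-1 and 72.2 for Krtap7-1, and with no layer assigned 229 for Krtap13-1 and 53.8 for Krtap14. The mean of log2(signal + 16) in vehicle sample 3 stood apart for the inner root sheath at 8.68, the cortex keratins at 6.98, the high sulfur KAPs at 7.35, the ultrahigh sulfur KAPs of the cortex at 7.02 and all 60 genes at 6.31. No SKI-606 group of 4 was marked in this way. The check looks for 1 value apart from the rest, so it can hardly mark groups in which SKI-606 samples 1 and 4 were both high. What set vehicle sample 3 apart was not tested.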

How the results depend on the processing

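No setting called any member or any probe at an adjusted p under 0.05, and the adjusted p of the 18 genes followed was between 0.304 and 0.999. Except where SKI-606 samples 1 and 4 and vehicle sample 3 were left out together, the median log2 fold change over members and in every class stayed above 0. With a pseudocount of 1, 4 and 64 the cuticle keratins had medians of 1.503, 1.26 and 0.54, the cuticle KAPs 1.93, 1.41 and 0.52 and the KAPs with no layer 1.596, 1.51 and 0.54. With log2 of the ratios as deposited these were 1.83, 2.19 and 2.07, and the high glycine-tyrosine KAPs 2.98. Leaving out 1 sample gave medians between 0.66 and 2.11 for all members, 0.58 and 2.64 for the inner root sheath, 0.77 and 2.49 for the cortex keratins, 1.14 and 2.71, 0.88 and 2.93, and 0.94 and 2.46 for the high sulfur, ultrahigh sulfur and high glycine-tyrosine KAPs of the cortex, 0.43 and 1.42 for the cuticle keratins, 0.62 and 1.28 for the cuticle KAPs and 0.60 and 1.53 for the KAPs with no layer. Without SKI-606 samples 1 and 4 and vehicle sample 3, a choice made after seeing the data, medians were -0.076 for all members, -0.23 for the inner root sheath, -0.21 for the cortex keratins, -0.14 for the cuticle keratins, 0.30, -0.13 and 0.00095 for the high sulfur, ultrahigh sulfur and high glycine-tyrosine KAPs of the cortex, 0.047 for the cuticle KAPs and -0.030 for the rest. Members higher in SKI-606 at an unadjusted p under 0.05 were 4, and 14 with array weights, 1 without quantile normalization, 0 with a pseudocount of 64 and 2 on the ratios as deposited, and from 0 to 26 with 1 sample left out, with the highest counts, 26 and 23, when SKI-606 sample 2 or 3 was dropped. With the replicate block they were 7, the median over members was 1.44 and 0 were called, and the numbers do not pair the samples. Krtap19-1 turned to 0.044 with a pseudocount of 1, to 0.072 on the deposited ratios, to 0.05 without vehicle sample 2 and to 0.14 without vehicle sample 4, within -0.26 to 0.14 over single samples left out. Signals near or below 32 limit the dim members.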

Other observations

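Genes outside the rule were read for the same gap between SKI-606 samples 1 and 4 and vehicle sample 3 on one side and the other 5 arrays on the other. The genes below were picked for that gap, so their values are a description. The widest gap of all genes, 6.16 log2 units, belonged to Prr9, a proline-rich gene of the epidermal differentiation cluster, with signals of 6396, 9.1, 1.1 and 8006 in SKI-606 samples, against 19.6, 2.0, 2530 and 10 in vehicle samples. Calm4, a calmodulin-like protein of keratinocytes, had 1809, 3.6, 8.0 and 1285 in SKI-606 samples, against 3.4, 3.1, 1119 and 1.6 in vehicle samples. Klk7, a protease that acts in shedding of the cornified layer, had 775, 12.4, 5.0 and 816 in SKI-606 samples, against 1.1, 11.4, 547 and 1.0 in vehicle samples.

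Several probes that name more than 1 KAP gene, and so were left out of the 60, gave values of the same order. The probe shared by Krtap9-1 and other genes had 556, 8.0, 16.5 and 1122 in SKI-606 samples, against 2.4, 9.1, 86.9 and 3.6 in vehicle samples. The probe shared by Krtap2-4 with others had 588, 7.0, 1.1 and 1170 in SKI-606 samples, against 1.1, 1.1, 102 and 1.6 in vehicle samples. A probe for Krtap3-2 and Krtap3-3 was dim in all arrays, with a highest signal of 13.4 in SKI-606 sample 4, while another probe for the same pair had 139.5, 1.1, 2.0 and 241 in SKI-606 samples, against 2.4, 4.2, 64.4 and 5.5 in vehicle samples.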
